A study of Mus musculus with 24 samples.

Results

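The experiment described here asks where the difference between 2 mouse strains is not the same in brown fat as in skeletal muscle. For each gene the NZO minus B6 difference in muscle was subtracted from the NZO minus B6 difference in brown fat, and this interaction was tested on 15 of the 24 arrays of the series. The 15 arrays comprised 4 of NZO brown fat (NZO_BAT), 4 of B6 brown fat (B6_BAT), 4 of NZO muscle (NZO_quad) and 3 of B6 muscle (B6_quad). The array B6_quad_011 was left out because it holds fat transcripts, and the 8 arrays of white fat were not part of the question. All mice were males of the strains NZO/HiBomDife, which is prone to obesity and diabetes, or C57BL/6 (B6), which stays lean and is resistant to diabetes. All received a diet with 45% of fat, and the extraction notes give an age of 6 weeks for every sample, so diet and age are shared by all 4 groups. The tissue labelled quad in the sample titles is named skeletal muscle in the other labels. Whether each sample of a group is a different animal is not stated in the labels. The p-values below therefore weigh differences against the spread among these particular samples, part of which may be technical. Both strains carry their own natural genome throughout, and no single allele or agent separates the groups.

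Brown adipose tissue burns fatty acids and glucose to make heat, through uncoupling protein 1 in mitochondria that are unusually dense for a fat depot. Skeletal muscle is built of fast and slow fibres that express tissue-specific myosins, troponins and creatine kinase, and it is the main site of insulin-stimulated glucose disposal. An interaction of strain and tissue is far from 0 wherever a gene's strain difference is larger in one tissue than in the other, or runs in opposite directions.

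Each array is a single-colour Agilent array of labelled RNA, and a level here is the log2 signal of a gene minus the 75th percentile of its array, so that a difference of 1 is a 2-fold difference. Between 52.9% and 59.9% of spots were well above background on the 15 arrays, and no spot was saturated. Arrays of the same group correlated at 0.97 to 0.99 in brown fat and at 0.96 to 0.99 in muscle. The tissue labels held in the tissue's own markers, since Ucp1 lay between 9.62 and 10.37 in the brown fat arrays and Tnnc2, fast troponin C, between 10.58 and 10.99 in the muscle arrays. Muscle arrays also held fat transcripts. The median of 10 mature adipocyte markers was 5.24% to 10.5% of the level in brown fat on the muscle arrays used, and 40.8% on the array left out. In whole tissue, fewer cells of a type and less RNA per cell cannot be told apart.

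In all, 1215 of 19377 genes tested had an interaction at an adjusted p below 0.05 (limma, Benjamini-Hochberg over all genes tested), which is 6.27% of them. The interaction was above 0 in 693 genes (3.58%), which were higher in NZO relative to B6 in brown fat than in muscle, and below 0 in 522 (2.69%). With arrays centred on their median in place of the 75th percentile, 476 genes passed and the split turned to 211 above 0 and 265 below 0. The calls were spread unevenly over genes of different tissue preference. Among the 2541 muscle-rich genes, at least 2-fold higher in muscle than in brown fat over both strains, 378 passed (14.9%), 177 above 0 (6.97%) and 201 below 0 (7.91%). Among the 16836 other genes 837 passed (4.97%). Of 85 genes more than 8 log2 units higher in muscle, 81 passed and all 81 were below 0, with a median interaction over the 85 of −4.35. The median over all genes tested was 0.04. The filter let a gene enter through 1 strain per tissue. Some muscle genes near background in NZO brown fat entered through B6 brown fat, which favours values below 0 among them. With only probes well above background on all 15 arrays, 1047 genes passed, 664 above 0 and 383 below 0.

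**Figure D1:**
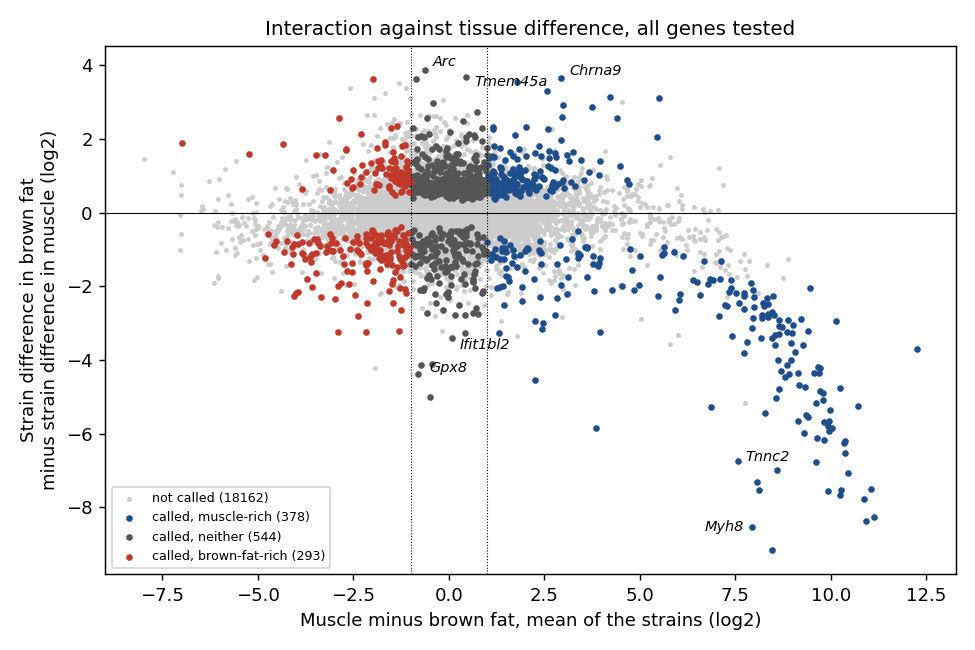
Interaction of strain and tissue (log2, y axis) against the difference between muscle and brown fat averaged over the strains (log2, x axis), 1 point per gene tested. Dotted lines mark the 2-fold limits of muscle-rich and brown-fat-rich genes. The genes far to the right, more than 8 log2 units higher in muscle, lie almost entirely below 0.

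The largest interactions of the whole table were muscle fibre genes, which were lower in NZO than in B6 brown fat and did not pass the test between strains in muscle. Tnnc2 was at −1.27, −0.75, −0.04 and 1.00 in NZO brown fat, and at 5.84, 6.48, 6.56 and 7.86 in B6 brown fat. In muscle it was at 10.58, 10.65, 10.69 and 10.78 in NZO and at 10.80, 10.85 and 10.99 in B6. The brown fat arrays of the strains did not overlap, and the muscle values of NZO lay just below those of B6. Over all genes tested the strains did not overlap in 22% in brown fat and in 27.4% in muscle. The interaction of Tnnc2 was −6.74 (SE 0.65, limma adjusted p = 8.74e-05), made of a strain difference of −6.95 in brown fat and of −0.21 in muscle (adjusted p = 0.828). All 16 fast fibre markers on the list passed below 0, where 7.91% of all muscle-rich genes did. Their median interaction was −6.86, from −9.16 to −2.10, and none of the 16 was called between strains in muscle. That test shares 1 spread per gene with the brown fat arrays, so a small difference in muscle could be missed. The 5 lowest muscle-rich genes under the naming rule were Myh8, a myosin heavy chain of developing fibres (−8.54, SE 1.20), Tnnt3, fast troponin T (−7.56, SE 0.78), Tnni2, fast troponin I (−7.32, SE 0.82), Acta1, skeletal actin (−6.98, SE 0.85), and Tnnc2. Myosin heavy chain genes are close copies, and whether the Myh8 probe also reads other myosins was not tested. A second Myh8 probe gave −5.58. Ckm, muscle creatine kinase, had an interaction of −8.37 and was well above background on 1 of 4 NZO brown fat arrays. In muscle its strains did not overlap (−0.34), with SDs of 0.05 in NZO and 0.02 in B6. The shared spread gave that difference an SE of 0.72, and it was not called. Casq1 ran the other way in muscle, at 7.92 to 8.08 in NZO and at 7.10 to 7.39 in B6. Its strains did not overlap there, and this difference was not called either. Slow fibre genes did not pass, with 0 of 9 called by limma, 5 of 9 at an unadjusted p below 0.05 and a median of −1.38.

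**Figure D2:**
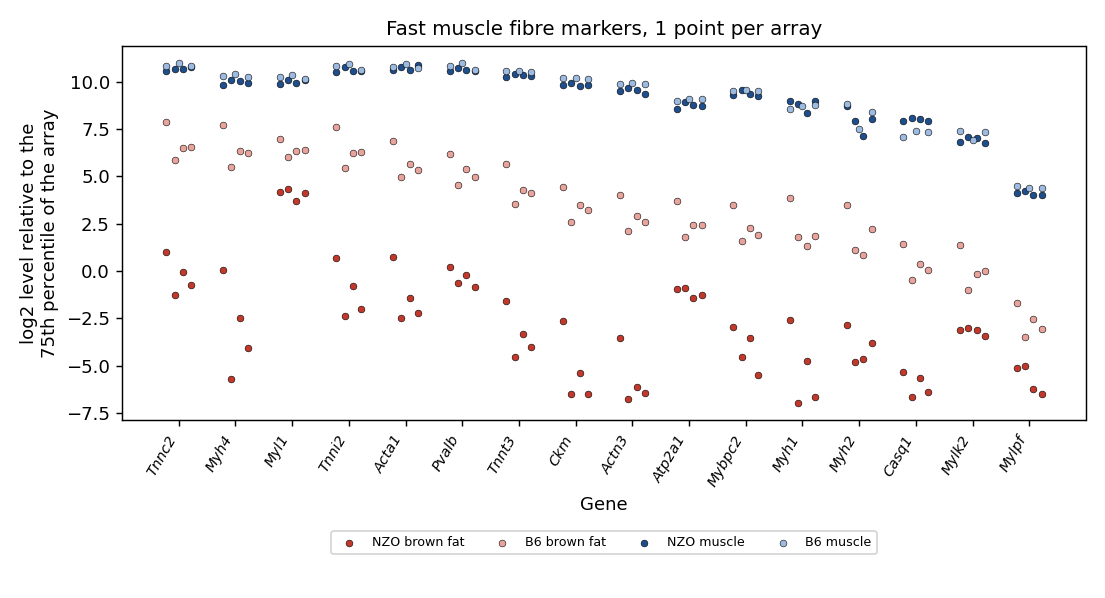
Levels of the 16 fast muscle fibre markers (x axis, ordered by their mean in B6 brown fat) on each of the 15 arrays (y axis, log2, array 75th percentile at 0). B6 brown fat points lie above NZO brown fat points for every marker, while the muscle points of both strains lie near the top. Casq1 lies higher in NZO than in B6 muscle.

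The amount of fibre RNA in brown fat differed between strains at every array. The median fast marker in B6 brown fat stood at 0.745%, 1.01%, 1.08% and 3.39% of its level in B6 muscle. In NZO brown fat it stood at 0.0112%, 0.0144%, 0.0197% and 0.0850% of its level in NZO muscle. The ranges did not overlap, and the highest B6 value belonged to B6_BAT_010. The markers Casq1 and Mylpf were well above background on no NZO brown fat array, and Ckm on 1 of 4. Actn3 was at −6.79 in NZO_BAT_011, −6.15 in NZO_BAT_003 and −6.46 in NZO_BAT_007. The lowest signals well above background on these arrays were −4.71, −4.12 and −4.45. The NZO percentages, and the size of the marker interactions, are not firm where a marker lay near background. The percentages also depend on the marker. The highest of the 16 markers stood at 1.29% to 1.98% in NZO and at 5.38% to 16.4% in B6 brown fat. Subtracting the median marker's share of the muscle signal from each brown fat array left 865 genes that are not muscle-rich called, against 837 without it, of which 824 were shared. These genes are by definition less than 2-fold higher in muscle, so subtracting so small a share could change them little. With the share of the highest marker subtracted instead, 1047 were called, of which 791 were shared with the 837. The genes that are not muscle-rich are given apart in what follows.

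Among the 837 called genes that are not muscle-rich, 516 were above 0 (3.06% of 16836) and 321 below 0 (1.91%). Where the strain difference lay was read from the same fit, in which 17.6% of all genes differed between strains in brown fat and 15.9% in muscle. Of the 516, 191 were higher in NZO brown fat with no call in muscle, and 189 were lower in NZO muscle with no call in brown fat. Of the 321, 146 were lower in NZO brown fat and 113 higher in NZO muscle, with no call in the other tissue. The strain difference ran in opposite directions, with both tissues called, in 56 genes, 35 of them higher and 21 lower in NZO brown fat. Smaller groups were called in the same direction in both tissues at unequal size, or in neither tissue alone. Brown-fat-rich genes passed at 8.74% (293 of 3352), with 131 above 0 (3.91%) and 162 below 0 (4.83%), and genes of no tissue preference at 4.03% (544 of 13484), with 385 above 0 (2.86%) and 159 below 0 (1.18%).

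**Figure D3:**
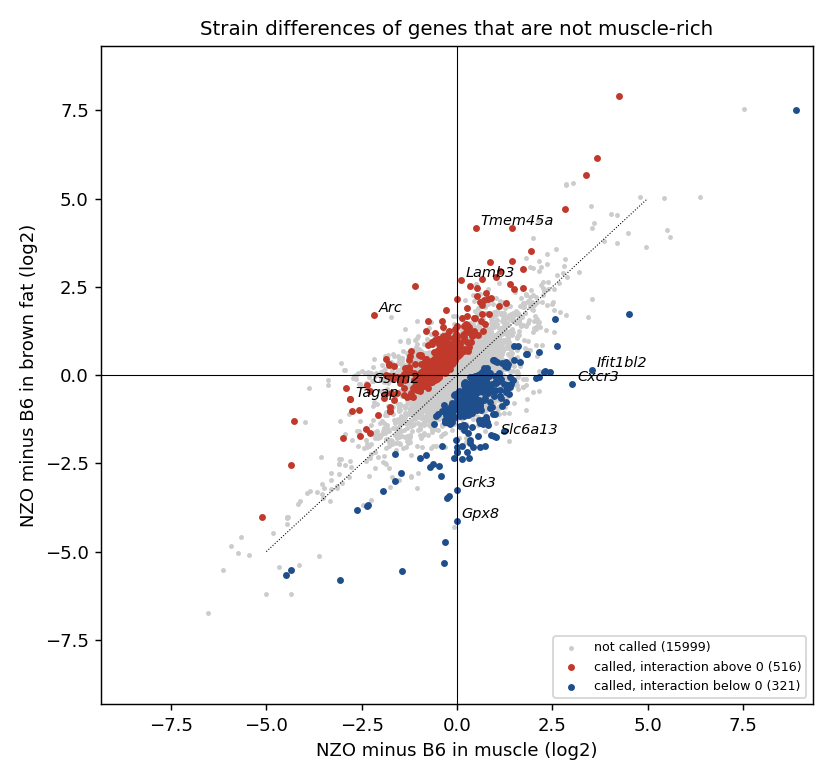
NZO minus B6 difference in brown fat (log2, y axis) against the same difference in muscle (log2, x axis) for genes that are not muscle-rich, 1 point per gene. Points on the dotted diagonal differ alike in both tissues. The 516 red genes lie above it and the 321 blue genes below it.

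Several of the lowest interactions came from genes that were lower in NZO than in B6 brown fat with no call between strains in muscle. Gpx8, a glutathione peroxidase of the endoplasmic reticulum (probe at chr13:113833213-113833272, mm9), was at 0.19, 0.31, 0.39 and 0.49 in NZO brown fat and at 3.99, 4.55, 4.63 and 4.75 in B6 brown fat. In muscle it was at 1.30, 1.53, 1.82 and 2.16 in NZO and at 1.44, 1.62 and 2.04 in B6. The brown fat groups stood far apart and the muscle groups overlapped. Its interaction was −4.14 (SE 0.30, limma adjusted p = 1.33e-05), with a strain difference in muscle of 0.00 (SE 0.22). Grk3, a kinase that desensitises beta-adrenergic and other G protein-coupled receptors (chr5:113339663-113339722, mm9), followed the same pattern. It was at −0.45, 0.18, 0.38 and 0.95 in NZO and at 3.24, 3.57, 3.57 and 3.67 in B6 brown fat. In muscle it lay between −0.53 and −0.08 on all 7 arrays, and its interaction was −3.25 (SE 0.33, adjusted p = 0.000111). A further probe, listed under the older name Adrbk2 of the same gene, gave −3.23 and was well above background on 14 of 15 arrays. Ly6h, a neuronal surface protein (−2.65), Dpysl4, a member of the collapsin response mediator family (−2.46), and Hebp2, a haem-binding protein (−2.45), were likewise lower in NZO brown fat with no call in muscle. A second Dpysl4 probe gave −4.72.

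Several of the highest interactions came from genes that were higher in NZO than in B6 brown fat. Tmem45a, a transmembrane protein known from keratinising epithelium (chr16:56806668-56806727, mm9), was at 0.72, 1.07, 1.22 and 2.41 in NZO and at −2.92, −2.87, −2.77 and −2.71 in B6 brown fat. In muscle it ran from −0.33 to 0.30 in NZO and from −0.86 to −0.05 in B6, so that the muscle groups overlapped. The interaction was 3.67 (SE 0.44, limma adjusted p = 0.00028). Lamb3, a chain of a laminin in epithelial basement membrane (chr1:195170009-195170068, mm9), was at 1.62, 1.74, 1.75 and 2.26 in NZO and at −1.10, −1.01, −0.78 and −0.53 in B6 brown fat. Its muscle values were between −2.70 and −1.92 on all 7 arrays, and the interaction was 2.58 (SE 0.28, adjusted p = 0.000188). Ddr1, a collagen receptor tyrosine kinase (2.18), and St6galnac2, a sialyltransferase (2.13), were also higher in NZO brown fat with no call in muscle. Cntfr, the ciliary neurotrophic factor receptor, had 2.13 on the probe used and 0.44 on a second probe, and lost the call without B6_quad_009 (2.07, adjusted p = 0.0541). Nts, the precursor of neurotensin, had 2.29 (SE 0.61, adjusted p = 0.0416) and lost the call in 11 of the 15 fits that each left out 1 array, at an adjusted p of up to 0.379 over all alternatives.

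Other large interactions came from strain differences in muscle. Ifit1bl2, an interferon-induced tetratricopeptide protein (chr19:34691566-34691625, mm9), was at 2.26, 2.48, 2.62 and 2.74 in NZO and at −1.09, −1.02 and −0.96 in B6 muscle. In brown fat it was at 0.65, 0.68, 0.82 and 0.84 in NZO and at 0.41, 0.57, 0.65 and 0.75 in B6. The muscle arrays were split by strain without overlap while the brown fat arrays overlapped, and the interaction was −3.40 (SE 0.16, limma adjusted p = 2.35e-07). The other interferon-induced genes on the list did not share it: of 25 measured, 1 passed above 0, Oasl2 (0.76), and 1 below 0, Ifi202b, and the median was 0.20. Across all genes 3.58% passed above 0 and 2.69% below 0. Oasl2 lost its call without any 1 of 6 arrays (0.65 to 0.76, adjusted p 0.0518 to 0.0809).

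The 4 genes of lymphocyte biology under the naming rule differed in muscle, in both directions, and no T cell marker passed. Cxcr3, a chemokine receptor of activated T cells (chrX:98926920-98926979, mm9), was at 0.11, 0.14, 0.36 and 0.73 in NZO muscle and at −2.88, −2.72 and −2.48 in B6 muscle. In brown fat the groups overlapped, at −1.73 ± 0.27 in NZO and −1.48 ± 0.50 in B6 (SD, n = 4), and the interaction was −3.28 (SE 0.34, limma adjusted p = 0.000123). Cd28, a co-stimulatory receptor of T cells, ran the other way. It was at −3.00, −2.98, −2.93 and −2.87 in NZO muscle and at 0.18, 0.95 and 1.25 in B6 muscle, with all 8 brown fat arrays between −3.25 and −2.52. Its interaction was 3.56 (SE 0.31, adjusted p = 4.50e-05). Tagap, a GTPase-activating protein of T cells, was at −1.47, −1.41, −1.24 and −1.21 in NZO muscle and at 1.42, 1.47 and 1.49 in B6 muscle. In brown fat it was also lower in NZO, without overlap (−0.69, adjusted p = 0.00058). Its interaction was 2.10 (SE 0.16), and that of its close copy Tagap1 was 2.05 (SE 0.14), and reads of one by the probe of the other were not tested. Of the T cell markers Cd2, Cd3e, Cd4 and Lck, 0 of 4 passed in limma and 0 had an unadjusted p below 0.05, and their interactions ran from −0.31 to 0.28.

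Of the 177 muscle-rich genes with interactions above 0, 93 were lower in NZO muscle with no call in brown fat, and 51 were higher in NZO brown fat with no call in muscle. Chrna9, a subunit of nicotinic acetylcholine receptors, was at −1.58, −1.40, −0.93 and −0.75 in NZO and at 3.21, 3.30 and 3.56 in B6 muscle. No brown fat array exceeded −1.21, and the interaction was 3.65 (SE 0.38, limma adjusted p = 0.000125). Smox, spermine oxidase of polyamine breakdown, was at 4.51, 4.97, 5.11 and 5.41 in NZO and at 6.91, 7.18 and 7.22 in B6 muscle. Its brown fat values lay between 0.37 and 0.83 in both strains, the interaction was 2.06 (SE 0.26), and a second probe gave 2.04. Slc25a25, a mitochondrial ATP-magnesium carrier, had 2.26 (SE 0.62, adjusted p = 0.0487) and lost the call in 14 of the 15 fits that left out 1 array. Tk1, thymidine kinase of DNA synthesis, had 1.81 from a difference in brown fat, and 0.33 on a second probe.

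Genes whose strain difference reversed between the tissues included one neuronal activity gene and several enzymes. Arc, an immediate-early gene of synaptic plasticity (chr15:74499592-74499651, mm9), was at −0.04, 0.40, 0.62 and 1.24 in NZO and at −2.08, −1.22, −0.88 and −0.40 in B6 brown fat. In muscle it was at −2.61, −2.22, −1.86 and −1.34 in NZO and at 0.01, 0.15 and 0.32 in B6. The strains did not overlap in either tissue. The interaction was 3.87 (SE 0.53, limma adjusted p = 0.000791), from 1.70 in brown fat and −2.17 in muscle. Arc was the highest of all genes under the naming rule that are not muscle-rich. Immediate-early genes as a family, listed after values had been seen, had 3 of 18 measured members called above 0 (Arc, Slc25a25 and Nfil3) and 0 below, with a median of 0.17. The share of all genes called above 0 was 3.58%. Nfil3, a repressor tied to the circadian clock, had 1.56 (SE 0.35) and lost the call without B6_quad_010 (1.47, adjusted p = 0.0585) or B6_quad_009 (1.33, adjusted p = 0.0555).

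Of the other genes higher in NZO brown fat and lower in NZO muscle, Oxct1 is the enzyme that activates ketone bodies for use as fuel. It was at 5.93, 6.02, 6.08 and 6.18 in NZO and at 5.25, 5.32, 5.45 and 5.58 in B6 brown fat, against 5.50, 6.04, 6.07 and 6.27 in NZO and 6.45, 6.49 and 6.79 in B6 muscle. Its interaction was 1.25 (SE 0.22, limma adjusted p = 0.00442). Mapt, the microtubule protein tau, had 1.60, and 2 further probes gave 1.58 and 1.36. Atp8a1, a phospholipid flippase, had 1.55, Pitpnm3, a phosphatidylinositol transfer protein, 1.59 and Cnbd2, a cyclic nucleotide-binding protein, 1.88.

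Genes lower in NZO brown fat and higher in NZO muscle included a transporter and an inositol enzyme. Slc6a13, a carrier of taurine and GABA, was at −2.52, −2.01, −1.89 and −1.40 in NZO and at −0.43, −0.28, −0.28 and 0.21 in B6 brown fat. In muscle it was at −0.55, −0.54, 0.14 and 0.44 in NZO and at −1.22, −1.16 and −1.09 in B6, and the interaction was −2.78 (SE 0.38, limma adjusted p = 0.000745). Isyna1, which makes inositol phosphate from glucose 6-phosphate, was at 1.06, 1.54, 1.81 and 2.19 in NZO and at 2.54, 2.73, 2.74 and 2.97 in B6 brown fat. It was at 1.79, 1.84, 1.95 and 2.19 in NZO and at 0.72, 0.93 and 1.19 in B6 muscle, and the interaction was −2.09 (SE 0.29, adjusted p = 0.00103). The strains did not overlap in either tissue for both genes. Arhgdig had −2.81 and −2.60 on its 2 probes, Sema4b, a semaphorin, −1.63 and Phf19, a Polycomb-associated protein, −1.62. With B6_quad_011 kept in the fit, the calls of Slc6a13 (adjusted p = 0.340) and Sema4b (adjusted p = 0.108) were lost.

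**Figure D4:**
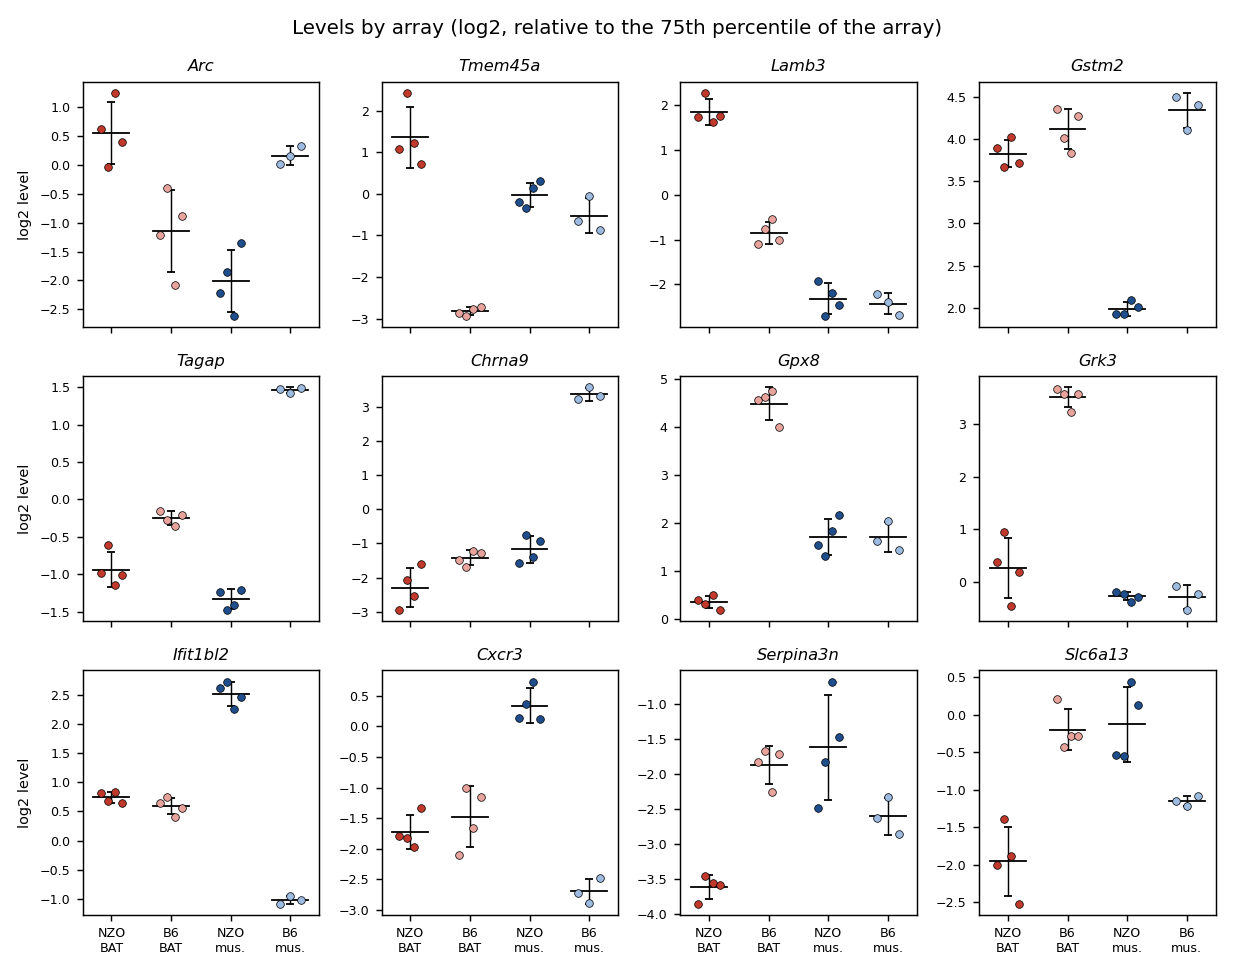
Levels of 12 named genes on each array (y axis, log2, array 75th percentile at 0) in the 4 groups, with the mean (line) and SD (bar). Gpx8, Grk3, Tmem45a and Lamb3 separate the strains in brown fat, and Gstm2, Chrna9, Ifit1bl2 and Cxcr3 in muscle. Arc and Slc6a13 separate them in both tissues in opposite directions, Tagap in both in the same direction, and Serpina3n in brown fat with overlap in muscle.

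Of the acute-phase proteins, secreted carriers and inhibitors made mainly by liver and also by fat, 4 were lower in NZO brown fat and had interactions below 0. Serpina3n, a secreted serine protease inhibitor, was at −3.85, −3.59, −3.56 and −3.46 in NZO and at −2.27, −1.84, −1.72 and −1.68 in B6 brown fat. In muscle it was at −2.49, −1.83, −1.48 and −0.69 in NZO and at −2.85, −2.63 and −2.33 in B6. The brown fat groups stood apart. The muscle groups overlapped, yet Serpina3n was also called higher in NZO muscle, by 0.98 (limma adjusted p = 0.0487). Its interaction was −2.72 (SE 0.43, limma adjusted p = 0.00219). Orm1 and Orm2, the orosomucoids, had interactions of −2.18 (SE 0.49) and −2.28 (SE 0.52). Orm1 was at 0.71, 1.43, 1.78 and 2.05 in NZO and at 3.04, 3.25, 3.43 and 3.64 in B6 brown fat, and the muscle groups overlapped between −2.19 and −0.50. The orosomucoid genes are near-identical copies, so a probe of one may read the other. Trf, the iron carrier transferrin, had −1.95 (SE 0.45), from 4.07, 4.07, 4.16 and 4.18 in NZO against 5.10, 5.20, 5.44 and 5.52 in B6 brown fat.

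These 4 were the called members of 11 measured in a family listed after values had been seen, with 0 above 0 and a median of −1.48. Of all genes tested, 2.69% passed below 0. The liver marker list, which shares Trf, had 1 of 8 members called and a median interaction of −1.63. Its mean level ran from −0.84 to 0.81 in NZO and from −0.87 to 0.79 in B6 brown fat, and from 0.07 to 4.13 in NZO and −1.23 to 2.18 in B6 muscle. Whether liver transcripts take part in these interactions, in either tissue, was not tested. With B6_quad_011 kept, all 4 calls were lost, with Serpina3n at −1.73 (adjusted p = 0.429), Orm1 at −1.25 (adjusted p = 0.575) and Trf at −1.27 (adjusted p = 0.450). Without B6_quad_009 the adjusted p of Orm1, Orm2 and Trf was 0.0614, 0.0666 and 0.0694, and without B6_quad_010 that of Orm2 and Trf was 0.0512 and 0.0589.

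Glutathione S-transferases, which conjugate glutathione to reactive compounds, split in direction within a gene cluster on chromosome 3. Gstm2 (chr3:107784622-107784681, mm9) lay between 1.92 and 2.09 on the 4 arrays of NZO muscle and at 4.11, 4.40 and 4.50 in B6 muscle, with all brown fat arrays between 3.67 and 4.35. Its interaction was 2.06 (SE 0.19, limma adjusted p = 5.79e-05), and 2 further probes gave 2.18 and 1.83. Gstm7 (chr3:107732073-107733247, mm9) ran the other way, at −0.49, −0.40, −0.26 and 0.01 in NZO and at −2.72, −2.31 and −2.25 in B6 muscle. Its brown fat groups overlapped between −1.50 and −0.59, and the interaction was −2.20 (SE 0.26, adjusted p = 0.000265). Of 20 measured members of the family, listed after values had been seen, 2 passed above 0 (Gstm2 and the microsomal Mgst3, 0.83) and 4 below 0 (Gstm7, Gstz1, Gstt2 and Gstm4), with a median of −0.01. Over all genes 3.58% passed above 0 and 2.69% below 0. Gstz1, which also acts in tyrosine breakdown, was at 4.77, 4.79, 4.94 and 4.96 in NZO and at 5.82, 5.83, 5.96 and 6.03 in B6 brown fat, for an interaction of −1.24. Gstm4 had −0.52 on the probe used and 0.22 on a second, and the mu-class genes are close copies. Gstt2 (−1.03) lost its call without B6_quad_010 (adjusted p = 0.0513) or B6_quad_009 (adjusted p = 0.0540), and Gstm4 without B6_quad_010 (adjusted p = 0.0568).

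**Figure D5:**
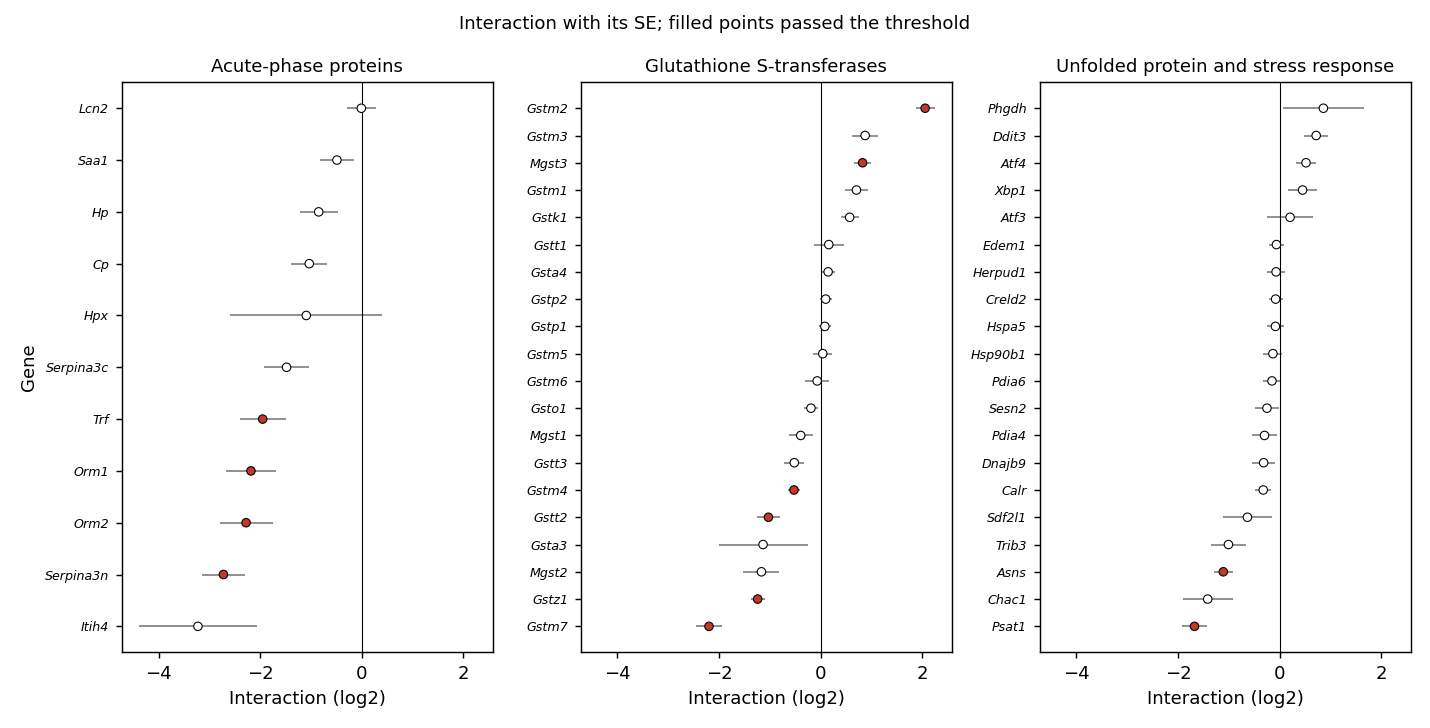
Interaction (log2, x axis) with its standard error for the measured members of the acute-phase family, the glutathione S-transferases and the unfolded protein and stress response list. Filled points passed an adjusted p of 0.05. The acute-phase members lie at or below 0, the transferases on both sides.

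In the unfolded protein and stress response list, 2 of 20 passed, both below 0 and both enzymes of amino acid synthesis. Among all genes 2.69% passed below 0. Asns, asparagine synthetase, was at 1.68, 1.81, 1.82 and 2.28 in NZO and at 0.72, 0.90 and 0.96 in B6 muscle. In brown fat it lay between 5.05 and 5.38 in both strains, and the interaction was −1.11 (SE 0.19, limma adjusted p = 0.00442). Psat1, an aminotransferase of serine synthesis, was at 0.62, 0.66, 0.86 and 0.94 in NZO and at −1.03, −0.66 and −0.24 in B6 muscle, with an interaction of −1.67 (SE 0.25, adjusted p = 0.00152). Both were higher in NZO muscle without overlap and overlapped in brown fat. Asns was far higher in brown fat, and adipocyte markers on the muscle arrays stood at 5.24% to 10.5% of brown fat. That fat share was not subtracted, and its part in the muscle levels of Asns was not tested. Other targets of the same stress pathway, Trib3 (−1.01, adjusted p = 0.101) and Chac1 (−1.41, adjusted p = 0.113), were below 0 and did not pass. The stress factors Ddit3 (0.72, adjusted p = 0.0905) and Atf4 (0.52, adjusted p = 0.126) were above 0 and did not pass, and the chaperone Hspa5 was at −0.08. The median of the list was −0.14, from −1.67 to 0.86. With B6_quad_011 kept, Asns fell to −0.58 (adjusted p = 0.637) and Psat1 to −0.78 (adjusted p = 0.703).

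The promoters of Asns and of Orm2 are shown because both genes passed the test and each holds the letters of a known binding motif. They are the 120 bases before the transcription start, from RefSeq on GRCm38.p6, and capitals mark the match. The motif TGATGNAA is the core read by ATF4 and its partners when amino acids are scarce, and TTGCGNAA the core read by C/EBP factors of the acute-phase response.
Asns, chr6:7693210-7693329, minus strand: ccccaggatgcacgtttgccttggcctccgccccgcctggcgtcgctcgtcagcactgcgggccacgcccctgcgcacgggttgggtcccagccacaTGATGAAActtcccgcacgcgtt
Orm2, chr4:63362329-63362448, plus strand: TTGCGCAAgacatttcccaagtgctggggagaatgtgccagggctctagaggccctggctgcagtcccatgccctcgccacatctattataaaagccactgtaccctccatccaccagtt
The Asns match spans bases 23 to 16 before the start, and the Orm2 match, which reads alike on both strands, bases 120 to 113. Over the 250 bases before the start and both strands, TGATGNAA occurs in 3.45% of 32851 promoters and TTGCGNAA in 0.67%. All 20 genes of the stress list were matched in the promoter table and 4 of them hold TGATGNAA (Asns, Chac1, Atf3 and Herpud1), of which Asns passed the test. Of the acute-phase family 11 of 15 genes were matched and 1, Orm2, holds TTGCGNAA. A match is a description of these letters and not a measured site.

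The heat and fuel programmes of brown fat gave few interactions. Of 24 thermogenic genes measured, 1 passed above 0 and 0 below, against 6.27% of all genes, with a median of 0.02. Ucp1 was at 9.62, 9.81, 9.83 and 9.97 in NZO and at 9.99, 10.21, 10.23 and 10.37 in B6 brown fat, and at −0.40, 0.47, 1.64 and 2.72 in NZO and 0.59, 3.34 and 4.91 in B6 muscle. The muscle values spread widely within each strain, and the interaction was 1.45 with an SE of 1.12 (limma adjusted p = 0.502). The called gene was Prdm16, a regulator of brown fat identity, at 1.58 (SE 0.40), from −4.30, −3.32, −3.09 and −2.79 in NZO and −2.22, −1.94 and −1.87 in B6 muscle. It lost its call in 7 of the 15 fits that left out 1 array, and brown adipocyte markers as a list averaged 0.72 to 1.65 in NZO and 1.09 to 2.34 in B6 muscle. Whether brown fat transcripts in the muscle samples take part in its interaction was not tested. In de novo lipogenesis 0 of 19 passed in limma with a median of −0.59, with Fasn, fatty acid synthase, at −1.72 (adjusted p = 0.356). In fatty acid oxidation 0 of 29 passed (median −0.15), and in the respiratory chain 0 of 30 (median −0.08). At an unadjusted p below 0.05 these 3 lists had 2, 7 and 4 genes.

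Glycolysis and glycogen metabolism had 6 of 26 members called, all below 0, and a median of −0.38, where 2.69% of all genes passed below 0, 7.91% of muscle-rich genes and 1.91% of the others. Of these, Pgam2 (−6.18), Eno3 (−2.25) and Pygm (−2.26) are the muscle forms of phosphoglycerate mutase, enolase and glycogen phosphorylase and are muscle-rich. The other 3, among 14 members that are not muscle-rich, were Eno1, the ubiquitous enolase (−1.05), Gbe1, the glycogen branching enzyme (−1.01), and Gpi1, glucose 6-phosphate isomerase (−0.67), and each was lower in NZO brown fat with no call in muscle. Eno1 lost its call in 10 of the 15 fits without 1 array and Gpi1 in 12. In insulin signalling, 1 of 28 passed above 0 and 1 below, against 6.27% of all genes in either direction. Akt2, the kinase of insulin-stimulated glucose uptake, was at 5.51, 5.67, 5.78 and 5.85 in NZO and at 6.22, 6.41 and 6.50 in B6 muscle. In brown fat it was at 7.17, 7.18, 7.23 and 7.26 in NZO and at 6.89, 6.96, 6.98 and 7.08 in B6, without overlap but with no call (0.24, adjusted p = 0.0914), and the interaction was 0.91 (SE 0.13, limma adjusted p = 0.00130). The other Akt2 probes gave 0.84, 0.59 and 0.46, and the last of these was lower in NZO in both tissues (−0.42 in brown fat and −0.88 in muscle) and did not pass (adjusted p = 0.227). Mtor had −0.81 on 1 probe and −0.19 on another and lost its call in 4 of the 15 fits.

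In branched-chain amino acid breakdown 2 of 20 passed, both above 0, with a median of 0.20, where 3.58% of all genes passed above 0. Pccb, a subunit of propionyl-CoA carboxylase, was lower in NZO in both tissues and more so in muscle. It was at 2.55, 2.73, 2.86 and 2.90 in NZO and at 3.74, 3.92, 3.93 and 4.02 in B6 brown fat, and at −0.34, −0.34, −0.19 and −0.14 in NZO and 1.78, 1.81 and 1.85 in B6 muscle. Its interaction was 0.92 (SE 0.14, limma adjusted p = 0.00164). Bckdhb, a subunit of the branched-chain ketoacid dehydrogenase, had 0.68 and lost its call in 12 of the 15 fits. In the citric acid cycle Fh1, fumarase, passed above 0 (0.40) and Idh1, the cytosolic isocitrate dehydrogenase, below 0 (−0.68), of 21 measured, and they lost the call in 10 and 8 of the 15 fits. Of all genes 6.27% passed in either direction. Of the adipokines and growth factors 1 of 20 passed. Retn, resistin, was at 3.60, 3.78, 3.85 and 4.15 in NZO and at 5.13, 5.29, 5.48 and 5.74 in B6 brown fat, with an interaction of −1.75 (SE 0.39, adjusted p = 0.0193) that was lost without B6_quad_010 (−1.50, adjusted p = 0.0599) and with B6_quad_011 kept (−0.78, adjusted p = 0.744). Adipoq, adiponectin, had −0.61 (SE 0.33, adjusted p = 0.329).

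Among genes proposed for NZO obesity and diabetes loci, 1 of 9 passed above 0 and 2 below, where 3.58% and 2.69% of all genes did. Ifi202b, an interferon-induced nuclear protein whose gene carries a known deletion in B6, had 0 of 7 B6 arrays with a signal well above background. Its levels were 0.43, 1.05, 1.12 and 1.21 in NZO brown fat and 1.95, 2.02, 2.74 and 2.84 in NZO muscle, which made it at least 38.5-fold higher in NZO in brown fat and at least 98.4-fold higher in muscle. These bounds set the mean of the bright group against the lowest signals well above background on the dim arrays. Its interaction of −1.37 (limma adjusted p = 0.0267) rests on B6 values below background and turned to 0.77 with B6_quad_011 kept. Lgr4, an R-spondin receptor, had 1.47 (SE 0.24, adjusted p = 0.00312), higher in NZO brown fat and lower in NZO muscle. Nnt, the mitochondrial transhydrogenase that is truncated in the C57BL/6J substrain, was at −0.51, −0.15, −0.00 and 0.05 in NZO and at −1.20, −1.07, −0.90 and −0.55 in B6 brown fat. In muscle it was at 3.68, 3.94, 4.03 and 4.16 in NZO and at 1.92, 2.21 and 2.50 in B6, and the interaction was −0.97 (SE 0.26, adjusted p = 0.0412), lost in 11 of the 15 fits.

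Markers of other cell types gave calls in some lists and none in others, where 6.27% of all genes passed. In limma, 0 of 15 macrophage, 10 endothelial, 4 B cell, 5 mast cell, 9 fibroblast and 5 erythroid markers passed. At an unadjusted p below 0.05 there were 2 endothelial, 2 mast cell and 2 fibroblast markers and 0 of the others. In inflammatory mediators 0 of 11, in MHC and antigen presentation 0 of 17, in cholesterol synthesis 0 of 22 and in the cell cycle list 0 of 16 passed, with 4, 2, 5 and 3 at an unadjusted p below 0.05. In the strain differences of single tissues, 10 of 16 cell cycle genes were called higher in NZO brown fat and 0 lower (median 0.95), where 17.6% of all genes differed. In muscle 9 were called higher and 1 lower (median 0.93), where 15.9% of all genes differed. Of 10 Schwann cell and nerve markers 2 passed below 0, the myelin proteins Ncmap (−2.28, adjusted p = 0.0275) and Mag (−0.70, adjusted p = 0.0393), with 5 at an unadjusted p below 0.05 and a median of −0.47. Both were higher in NZO muscle, and Ncmap lost its call in 6 and Mag in 11 of the 15 fits that left out 1 array. Of 25 extracellular matrix genes 1 passed, Lum, a proteoglycan that binds collagen (−1.06, adjusted p = 0.0107), with 10 at an unadjusted p below 0.05 and a median of −0.56. Of 8 mural cell markers 5 had an unadjusted p below 0.05, and the median was −0.40. Among them Mcam passed above 0 (1.04, and 0.44 on a second probe) and desmin, also a muscle gene, below 0. Mcam lost its call without B6_quad_010 (adjusted p = 0.0608), B6_quad_009 (adjusted p = 0.0517) or NZO_BAT_009 (adjusted p = 0.0508). Trim63, a ubiquitin ligase of muscle wasting, is muscle-rich and was not well above background on any NZO brown fat array, where it was at least 6.41-fold lower than in B6. Tsc22d3, a glucocorticoid target, had an interaction of 0.98 and lost its call in 9 of the 15 fits.

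Some large interactions fell outside the naming rule because a group was near background, and these were chosen after their values were seen. Acox2, a peroxisomal oxidase of bile acid synthesis, was at −5.77, −5.70, −5.14 and −4.22 in NZO and at −0.30, −0.30, 0.47 and 0.63 in B6 brown fat, a difference of −5.33 against −0.33 in muscle (adjusted p of the interaction in limma 0.00547). Cdsn, corneodesmosin of skin cell junctions, was at −5.17, −4.42, −4.09 and −3.80 in NZO and at −0.23, 0.14, 0.68 and 0.78 in B6 brown fat, with −4.39 (SE 0.51). Pnp2, a purine nucleoside phosphorylase, and Wfdc21, a secreted whey acidic protein, were not well above background on any NZO brown fat array and were at least 14.8-fold and at least 41.5-fold lower there than in B6. Btla, an inhibitory lymphocyte receptor, was not well above background in B6 muscle and was at least 12.3-fold higher in NZO muscle. No NZO sequence was set against the probes, and mismatches between NZO transcripts and probes were not tested.

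The 15 arrays lay on 6 slides, each scanned once, and no slide held all 4 groups. Of the 15 arrays, slides 2 and 5 held only NZO brown fat and B6 muscle, the groups added in the interaction. Slide 1 held only B6 brown fat and slide 6 only NZO muscle, the groups subtracted in it. In a fit without slide, effects of these slides and the interaction cannot be told apart. Slide 3 held both strains of brown fat and slide 4 both strains of muscle, and the interaction taken from these slides alone had the sign of the full fit for 834 of the 837 called genes that are not muscle-rich. Each group is 1 array here (NZO_BAT_007, B6_BAT_015, NZO_quad_007 and B6_quad_009). These arrays are part of the full fit, in which the 837 genes were called. Agreement in sign was thus largely built in, and this is no test of slide effects. Within these slides Gpx8 had −5.29, Grk3 −3.01, Ifit1bl2 −3.26, Arc 4.15, Gstm2 2.28, Serpina3n −2.69, Asns −1.66 and Tnnc2 −7.20. With slide as a fixed block 144 genes passed, 65 of them not muscle-rich, and with slide as a random block 997 and 681. With B6_quad_011 kept in the fit 636 genes passed, 386 of them not muscle-rich. Of 83 genes followed through the alternatives, slide as a fixed block ended the call of 56, among them Tmem45a (adjusted p = 0.162), Oxct1 (0.142), Mapt (0.175), Isyna1 (0.141), Akt2 (0.0556), Lgr4 (0.216), Smox, Pccb, St6galnac2 and Arhgdig. Keeping B6_quad_011 ended the call of 21 of them, among them, beside those given above, Ly6h, Btla, Gstz1, Gstt2, Mgst3, Eno1, Bckdhb, Fh1, Idh1, Nts, Slc25a25 and Tsc22d3. Of the muscle fibre genes, Myh8, Acta1 and Ckm each lost the call in 1 alternative (limma adjusted p = 0.104, 0.0589 and 0.0562). Tnnc2, Tnnt3 and Tnni2 kept it in all 28 run for each.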

How the data were processed

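RNA of brown fat and muscle of both strains had been hybridised to Agilent single-colour mouse arrays, 1 sample per array. The deposited scanner files hold spot intensity, background-subtracted by Agilent Feature Extraction (version 11.0.1.1 per the file headers, 9.1 per the submitters' processing notes), with probe positions on mm9 per the file headers. The deposited series table holds unnormalised intensity, which matched the mean of the authors' median spot intensity per identifier within a relative tolerance of 0.0001 for all 37877 identifiers, and served as an alternative. Control spots and spots flagged as outliers were left out, and spots of a probe were averaged. Values were log2 of the processed intensity minus the 75th percentile of the array. Kept were probes that in both tissues exceeded background clearly (the scanner's flag) on every array of 1 strain or the other, and the probe with the highest mean stood for its gene. Of 55681 probes, 27656 were named through a RefSeq accession and the others kept the file's name. An outlier spot was missing on an array for 93 genes, none of them named here. limma 3.58.1 in R 4.3.3 (lmFit and eBayes on 4 group means) gave the interaction and both strain differences from 1 fit of the 15 arrays, adjusted by Benjamini-Hochberg over all genes tested, with a threshold of 0.05.

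Genes were named by rule. Among called genes with a symbol that were well above background on all 15 arrays, these were the 10 highest and 10 lowest that are not muscle-rich, the 5 highest and 5 lowest that are muscle-rich, and up to 6 per direction with opposite strain differences. Added without that condition were called members of the gene lists, and Ucp1, Adipoq, Acta1, Tnnc2 and Ckm as tissue checks. The members and lists were chosen with earlier results of these data known, and 3 families (acute-phase proteins, glutathione S-transferases, immediate-early genes) were listed after values had been seen. The number of arrays limits the precision, and the median SE of an interaction was 0.23. Simulated data took the real mean of each tissue, averaged over the strains, and the real spread per gene as independent noise without slide effects. On these the fit recovered 46% of 100 interactions of 1 and 75% of 100 interactions of 2 (log2) among 19284 genes. There were 4 calls among unchanged genes, which does not measure the error rate on the real arrays. Motifs were searched on both strands in RefSeq promoters.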

Additional observations from a re-analysis of the deposited data

Results flagged for a closer look

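The 1215 interactions, 837 of them in genes that are not muscle-rich, are themselves differences between tissues in the same strain contrast, tested by the interaction term. In 8 of 249 gene and group sets of 4 arrays, over 83 genes, 1 array stood apart by Dixon's criterion for 4 values, where chance gives about 1 in 20. Arhgdig was at −0.23 in B6_BAT_010 against a median of 0.53 on the others, Hebp2 at −1.29 in NZO_BAT_003 against 0.25, and Atp8a1 at 0.38 in NZO_quad_009 against 0.00. Gbe1 was at 4.07 in NZO_quad_003 against 4.38, Pgam2 at −2.50 in NZO_BAT_009 against −3.67, Mtor at 0.24 in NZO_quad_007 against 0.49, Mag at −0.57 in NZO_quad_007 against −0.97, and Idh1 at 1.80 in NZO_BAT_011 against 1.47. The array left out, B6_quad_011, had Adipoq at 6.79 and Retn at 7.12, where the highest other B6 muscle arrays had 3.37 and 3.59.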

How the results depend on the processing

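The counts of genes called for the interaction (1215 in all, 837 not muscle-rich) stayed within 1.5 times under normexp background, quantile normalization, a filter on all 15 arrays, slide as a random block, an intensity trend, the deposited series table, both subtractions of the muscle share (the one by the highest marker was added after seeing the data) and all 3 other definitions of muscle-rich. They moved to 476 and 267 with arrays centred on the median, to 795 and 474 with no filter on dim probes, to 636 and 386 with B6_quad_011 kept, to 809 and 462 with all 24 arrays in 1 fit, to 144 and 65 with slide as a fixed block, where the strain difference in brown fat had 1403 calls instead of 3407, and to 2981 and 2223 with array weights. The cause of these moves was not tested. Similar counts did not mean the same genes. Of the 837 genes, 556 were again called and not muscle-rich under normexp background and 643 with the deposited series table. Under quantile normalization there were 692, and with an intensity trend 774. The centring split the calls into 211 above and 265 below 0, and slide as a fixed block had 33.3% above 0 against 57.0%. With the replicate number as a block 380 and 186 genes passed. Same-numbered samples of the tissues correlated in their deviations at −0.16 to 0.22, so the numbers were not taken to pair samples, and the strain differences could not be fitted with that block. Leaving out 1 array gave 638 to 1354 and 398 to 957 interaction calls, 2609 to 3434 strain differences in brown fat and 1824 to 3194 in muscle. Single arrays that moved a count by over 1.5 times were B6_quad_010 (645 and 403, and 1881 in muscle), B6_quad_009 (638 and 398, and 1824 in muscle), NZO_BAT_009 (751 and 481), and, for genes not muscle-rich, NZO_BAT_003 (536) and NZO_quad_003 (547). The replicate block ended the call of 29 of the 83 genes followed, slide as a fixed block that of 56 and centring on the median that of 24. The filter on all 15 arrays could be run for 72 of the 83 and the subtractions of the muscle share for 63. Of the 83 genes, 3 changed sign in some setting: Adipoq to 0.37 and Ifi202b to 0.77 with B6_quad_011 kept and with all 24 arrays, and Ucp1 to −0.36 with slide as a fixed block. Gpx8, Grk3, Tagap, Tagap1, Ifit1bl2, Cxcr3, Gstm2, Lamb3, Ddr1 and Arc kept their call in all 30 settings each. Signals near background have no firm level, so differences against them are bounds.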
